A study of Mus musculus with 38 samples.

Results

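The Toll-like receptors are the subject here: the 10 receptor genes Tlr1, Tlr2, Tlr3, Tlr4, Tlr5, Tlr6, Tlr7, Tlr8, Tlr9 and Tlr13, of 55487 genes counted, in a mouse RNA sequencing study of hypoxia in myeloid and glioma cells. They were chosen by gene name, each matched to 1 gene identifier in the count tables. Toll-like receptors are transmembrane proteins that recognise conserved molecules of microbes and signal through a cytoplasmic TIR domain to adaptors such as Myd88 and Ticam1, which activate NF-kB and interferon regulatory factors. Tlr1, Tlr2, Tlr4, Tlr5 and Tlr6 are found at the cell surface and sense lipopeptides, lipopolysaccharide and flagellin, whereas Tlr3, Tlr7, Tlr8, Tlr9 and Tlr13 lie in endolysosomes and sense nucleic acids. Macrophages and microglia are among the cells that express most of the family.

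The cells were BV2, an immortalised mouse microglial line, BMDM, primary macrophages grown from bone marrow of wild-type mice, and GL261, a mouse glioma line that here carried a stably integrated GFP plasmid in all its groups. In the co-culture experiment each cell type was held 16 h at 21% O2 (normoxia) or below 0.1% O2 (hypoxia), alone or in direct contact. There were 2 GL261 cells per BV2 cell or 1 per BMDM. The co-cultured GL261 libraries belong with the BV2 co-culture, and no GL261 library is labelled as from the BMDM co-culture. In the panobinostat experiment BV2 cells and BMDM, each alone, were kept for 16 h in normoxia with DMSO, in hypoxia with DMSO, or in hypoxia with 10 nM panobinostat, a histone deacetylase inhibitor. No group combined panobinostat with normoxia, so its effect was measured in hypoxia only. BV2 medium held 2% serum and BMDM medium 10%, and cells were fixed in 3% glyoxal before RNA was extracted. There were 38 libraries in 18 groups, with 2 libraries per group and 3 in each co-cultured BMDM group. The labels do not tie the BMDM libraries to separate mice, so the p-values measure the spread between libraries, which may in part be technical. How co-cultured cells were separated is not given in the sources used here.

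The libraries held 9634700 to 27238933 counts. A gene at 0 could have been as high as 3 counts, a limit for counting error only, which is 0.11 to 0.311 CPM, the count scaled to library size. All 10 macrophage markers examined were detected in every BV2 and BMDM group, with summed levels of 3252 to 3364 CPM in BV2 and 9080 to 10208 CPM in BMDM in normoxic monoculture. Of 7 microglia markers examined, Sall1 and Siglech were at 0 in normoxic and hypoxic monoculture of both BV2 and BMDM. In each BV2 monoculture group 4 of the 7 had a mean of at least 1 CPM. Their summed level in BV2 was 122.1 to 129.0 CPM in normoxic and 314.7 to 328.4 CPM in hypoxic monoculture. In normoxic BMDM monoculture it was 563.5 to 799.7 CPM. Genes of the partner cell accounted for an estimated 0.76% ± 0.271 (SD, n = 2) of the RNA in normoxic co-cultured BV2, 2.22% ± 0.202 (SD, n = 2) in hypoxic co-cultured BV2, 2.43% ± 1.21 (SD, n = 3) and 3.74% ± 2.32 (SD, n = 3) in co-cultured BMDM in normoxia and hypoxia, and at most 0.0615% in monocultures. In the panobinostat experiment the BMDM libraries stood apart. The summed level of 5 fibroblast genes (Col1a1, Col3a1, Pdgfrb, Dcn and Lum) was 1672 to 16967 CPM there, against 58.5 to 463.3 CPM in BMDM of the co-culture experiment, although Dcn was at most 5.02 and Lum at most 0.294 CPM in these libraries. In these bulk samples fewer expressing cells and less RNA per cell cannot be told apart.

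Tlr1 (ENSMUSG00000044827) and Tlr6 (ENSMUSG00000051498) are neighbours on chromosome 5 of the GRCm38 (mm10) build, at chr5:64924679-64933563 and chr5:64952031-64960097, both on the minus strand. Tlr2 (ENSMUSG00000027995) lies at chr3:83836272-83841767 on the minus strand, Tlr3 (ENSMUSG00000031639) at chr8:45395665-45411080 on the minus strand, Tlr4 (ENSMUSG00000039005) at chr4:66827584-66930284 on the plus strand, and Tlr5 (ENSMUSG00000079164) at chr1:182954788-182976044 on the plus strand. Tlr7 (ENSMUSG00000044583, chrX:167304929-167330558) and Tlr8 (ENSMUSG00000040522, chrX:167242696-167264329) are close together on the minus strand of chromosome X. Tlr13 (ENSMUSG00000033777) is on the plus strand of the same chromosome, at chrX:106143204-106160493, while Tlr9 (ENSMUSG00000045322) is at chr9:106222598-106226883 on the plus strand. Tlr1 shared 10.6% of its 75-base exonic words with other genes, mainly Tlr6, and Tlr6 shared 9.25% with Tlr1, so reads in those stretches could have been split between them or dropped. Tlr3 shared 4.28%, with its overlapping antisense gene Gm45542, which had 9 counts in all libraries together against 5907 for Tlr3. The other 7 genes shared none.

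Sequence upstream of the Tlr6 and Tlr1 start sites is shown because these neighbouring, related genes moved in opposite directions in hypoxic BV2 cells, as described next. Each gene has 2 windows in RefSeq, for 2 start sites, and 1 of each is shown, from GRCm38.p6, minus strand, without annotated exons. Tlr6 is chr5:64959167-64959416 (250 bases). Capitals mark 2 overlapping matches of the core of the interferon-stimulated response element, read here on the opposite strand. Tlr1 is chr5:64933564-64933808 (245 bases), and its capitals mark a GAGGAA match, the core bound by PU.1-type factors.
Tlr6: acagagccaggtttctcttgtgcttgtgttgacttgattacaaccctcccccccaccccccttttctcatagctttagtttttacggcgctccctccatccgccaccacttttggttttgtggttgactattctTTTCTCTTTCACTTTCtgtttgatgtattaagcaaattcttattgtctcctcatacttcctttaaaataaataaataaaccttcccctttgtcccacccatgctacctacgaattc
Tlr1: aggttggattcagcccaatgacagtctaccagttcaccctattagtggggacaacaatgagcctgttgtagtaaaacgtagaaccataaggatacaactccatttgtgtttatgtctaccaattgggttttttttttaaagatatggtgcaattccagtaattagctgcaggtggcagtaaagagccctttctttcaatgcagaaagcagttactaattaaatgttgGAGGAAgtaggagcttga
Motifs were searched on both strands in the RefSeq windows from 250 bases before to 50 bases after a start site. The interferon-stimulated response element core occurred in 1131 of 32851 promoters (3.44%) and in 1 of the 10 windows of the 8 receptors that had one, which was that of Tlr6. GAGGAA occurred in 28.3% of promoters and 4 of the 10 windows, ACGTG, the core of the hypoxia response element, in 19.6% and 1 window, that of the Tlr1 start site not shown, the NF-kB site in 20.7% and 3 windows, and TGANTCA, an AP-1 site, in 7.81% and 1 window. A match is a string of letters and not evidence of binding. Tlr4 and Tlr7 were not in the table.

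In normoxic monoculture, Tlr2, the common partner of Tlr1 and Tlr6 in lipopeptide sensing, was the most abundant receptor per length of transcript in both myeloid cells. Levels between genes are compared as CPM per kilobase of merged exon. In BV2 cells Tlr2 was at 49.0 ± 7.97 CPM per kb (SD, n = 2), followed by Tlr7, a sensor of single-stranded RNA, at 26.1 ± 1.03. Tlr13, the sensor of bacterial ribosomal RNA, was at 10.7 ± 0.251 and Tlr9, the sensor of unmethylated CpG DNA, at 9.74 ± 1.43, and their ranges overlapped. Below them came Tlr1 at 8.34 ± 0.0628, Tlr4, the lipopolysaccharide receptor, at 6.06 ± 0.451, Tlr6 at 3.37 ± 0.0297, and Tlr3, the double-stranded RNA sensor, at 2.45 ± 0.477. Tlr5, the flagellin receptor, was at 0.193 ± 0.109. Tlr8 was at most 5 counts in any BV2 library and was not tested there.

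In BMDM Tlr13, Tlr8 and Tlr9 held other places in the order. Tlr13 was at 45.8 ± 2.34 CPM per kb (SD, n = 2), next to Tlr2 at 53.4 ± 1.33 and above Tlr7 at 17.9 ± 3.09. Tlr8, an RNA sensor that was near 0 in BV2, was at 9.82 ± 1.74, and its range overlapped that of Tlr4 at 8.25 ± 0.555, which in turn overlapped that of Tlr1 at 7.76 ± 0.668. Tlr9 was at 4.75 ± 1.93, below Tlr1 and Tlr4 with no overlap, whereas in BV2 it lay above both. Tlr6 was at 2.95 ± 0.225, Tlr3 at 1.88 ± 0.0504 and Tlr5 at 0.797 ± 0.0443. The levels of BV2 and BMDM were tested against each other in DMSO normoxia, where a single count table held both. The BMDM libraries there had fibroblast sums of 16967 and 14055 CPM, against 99.6 and 131.3 CPM in normoxic BMDM monoculture. The part of cell composition in this comparison was not tested. Tlr8 had at most 2 counts in any BV2 library of that experiment and passed the count filter through the BMDM libraries. For Tlr8, therefore, only a lower level in BV2 could have been called. At 73.7 and 71.9 CPM in BMDM and 2 counts in all in BV2, it was lower in BV2 (edgeR adjusted p = 0.00324). It was the 1 receptor of 10 called there, where 44.2% of all genes tested were called, and without BV2 replicate 1 Tlr4 was called as well (−1.38, adjusted p = 0.0130).

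In GL261 cells the family was reduced to a few receptors. In normoxic monoculture Tlr6 was at 3.64 ± 0.0985 CPM per kb (SD, n = 2), Tlr4 at 2.86 ± 0.245, Tlr3 at 1.80 ± 0.0466, Tlr2 at 0.949 ± 0.266 and Tlr1 at 0.569 ± 0.0382, and Tlr8 was at 0 in every GL261 library. Tlr9 was at 0 in GL261 monocultures, so that its level in normoxic BV2 (34.2 CPM) was at least 201-fold higher, taking 3 counts per library as the floor. Tlr5, Tlr9 and Tlr13 had at most 8 counts in any GL261 library and entered the comparison with BV2 through the BV2 libraries. Tlr7 had at most 3 counts in GL261 monoculture. A lower level in BV2 could hardly have been called for these receptors. Against GL261, 7 of 9 receptors tested were higher in normoxic BV2 and none was lower. Of all genes, 33.8% were called higher and 39.4% lower (73.2% in all). The exceptions were Tlr6, whose difference was 0.01 on the log2 scale (95% interval −0.30 to 0.32), and Tlr3, at 0.56 (adjusted p = 0.0505), which was called without BV2 replicate 1 (0.73, adjusted p = 0.0368).

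Hypoxia divided the family in BV2 cells. In monoculture 4 of the 9 receptors tested rose (Tlr6, Tlr4, Tlr13 and Tlr9) and 3 fell (Tlr2, Tlr1 and Tlr3), in a fit that called 61.9% of all genes, 30.9% higher and 31.0% lower. At 7 of 9, the number of receptors called is not far above that background. Tlr6 rose the most. It was at 12.5 and 12.7 CPM in normoxia and at 55.4 and 52.4 CPM in hypoxia, a 4.28-fold rise (log2 2.10 ± 0.12 SE, adjusted p = 6.73e-10). Tlr6 forms with Tlr2 the receptor for diacylated lipopeptides. Tlr2 itself was at 130.8 and 164.8 CPM in normoxia and at 54.7 and 57.8 CPM in hypoxia, and fell by 1.39 on the log2 scale (SE 0.14, adjusted p = 3.50e-07). Tlr1, the partner for triacylated lipopeptides, was at 28.1 and 27.8 CPM in normoxia and at 13.6 and 9.94 CPM in hypoxia, and fell by 1.25 (SE 0.15, adjusted p = 1.87e-06). The 2 groups did not overlap for any of these 3 genes. Per length, Tlr6 stood below Tlr1 in normoxia (3.37 ± 0.0297 against 8.34 ± 0.0628 CPM per kb) and above it in hypoxia (14.5 ± 0.569 against 3.51 ± 0.767). The summed macrophage markers were at 4396 to 4412 CPM in hypoxia against 3252 to 3364 in normoxia, and their part in these changes was not tested.

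Tlr4 was at 31.9 and 35.4 CPM in normoxic BV2 and at 80.0 and 99.2 CPM in hypoxic BV2, a log2 rise of 1.41 ± 0.13 (SE, adjusted p = 7.91e-08). Tlr5 was near the floor, at 0.553 and 1.29 CPM against 1.24 and 1.10, and its log2 difference of 0.34 had an interval of −0.56 to 1.25. Among the endolysosomal receptors, Tlr13 was at 46.9 and 45.4 CPM in normoxia and 99.4 and 95.1 CPM in hypoxia (log2 1.08 ± 0.22 SE, adjusted p = 3.93e-04). Tlr3 was at 11.0 and 14.5 CPM in normoxia and 6.37 and 6.26 CPM in hypoxia, and fell by 1.01 (SE 0.19, adjusted p = 2.71e-04). Tlr7 held its level within the error, at 103.4 and 109.4 CPM against 90.4 and 110.2, with a log2 difference of −0.08 (interval −0.37 to 0.20). Tlr9 was at 30.4 and 37.4 CPM against 43.8 and 50.6, a log2 rise of 0.48 ± 0.19 (SE, adjusted p = 0.0383) that lost its call without normoxic replicate 1 (0.33, adjusted p = 0.238) or hypoxic replicate 2 (0.39, adjusted p = 0.178).

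**Figure D1:**
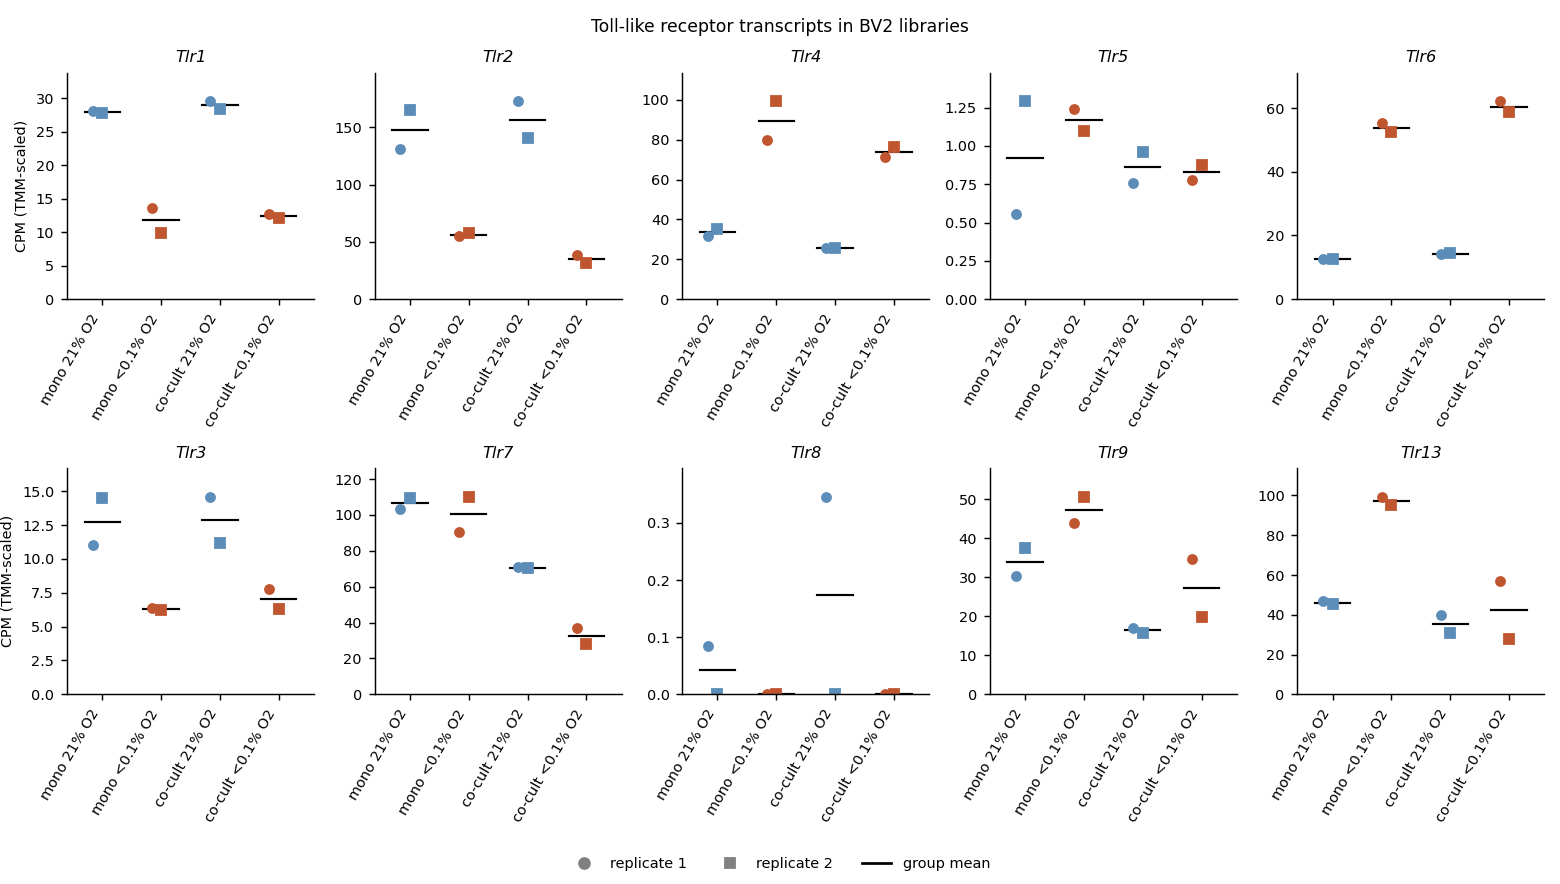
Level of each receptor in BV2 libraries (y axis CPM from 0, TMM-scaled, a scale per panel; x axis the 4 groups of the co-culture experiment; 1 point per library, bars at group means). Tlr6 and Tlr4 are higher in hypoxic than in normoxic libraries, and Tlr2, Tlr1 and Tlr3 are lower, alone and in contact.

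The DMSO groups of the panobinostat experiment gave the same contrast in BV2 libraries separate from those of the co-culture experiment. The normoxic ones also served above for the levels against BMDM. Of 9 receptors tested, 2 rose and 3 fell, where 17.2% of all genes were called higher and 20.2% lower (37.5% in all). Tlr6 was at 21.1 and 9.88 CPM in normoxia and at 56.7 and 43.8 CPM in hypoxia (log2 1.70 ± 0.33 SE, adjusted p = 0.00369). Tlr2 was at 147.0 and 129.1 CPM against 16.1 and 30.4 and fell by 2.57 (SE 0.30, adjusted p = 3.32e-04), Tlr1 was at 19.1 and 15.7 CPM against 2.83 and 4.48 and fell by 2.24 (SE 0.31, adjusted p = 7.80e-04), and Tlr3 was at 32.7 and 10.6 CPM against 3.38 and 4.18 and fell by 2.51 (SE 0.48, adjusted p = 0.00321). Tlr4 was at 39.7 and 20.9 CPM against 65.7 and 53.9, a rise of 0.98 ± 0.29 (adjusted p = 0.0229) that lost its call without normoxic replicate 2 (0.61, adjusted p = 0.0691) or hypoxic replicate 1 (0.83, adjusted p = 0.0901). The first normoxic library was above the second for every receptor, as for Tlr13 at 78.2 and 23.9 CPM. Tlr13, at 52.0 and 39.0 CPM in hypoxia, was not called (−0.17 ± 0.43), but rose without normoxic replicate 1 (0.96, adjusted p = 0.0281) and fell without replicate 2 (−0.76, adjusted p = 0.0446). Tlr7 and Tlr9 were not called, at −0.53 and 0.09, and Tlr7 was called without normoxic replicate 2 (−0.93, adjusted p = 0.0250).

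In contact with GL261 cells, hypoxia gave 3 higher and 4 lower receptors of 9, where 35.2% of all genes were called higher and 32.1% lower (67.3% in all). Tlr6 (log2 2.08 ± 0.12 SE, adjusted p = 7.93e-10) and Tlr4 (1.53 ± 0.13, adjusted p = 4.14e-08) rose in contact as well. Tlr2 fell by 2.15 (SE 0.15, adjusted p = 4.08e-09), Tlr1 by 1.22 (adjusted p = 2.36e-06) and Tlr3 by 0.86 (adjusted p = 0.00108). Tlr7, at 71.1 and 70.3 CPM in normoxia and 37.2 and 28.3 CPM in hypoxia, fell by 1.11 (SE 0.14, adjusted p = 3.38e-06). Tlr9 rose by 0.74 ± 0.21 (adjusted p = 0.00496), from 17.0 and 15.7 CPM to 34.7 and 19.7, and without hypoxic replicate 1 the rise was 0.19 (adjusted p = 0.377). Tlr13 was at 40.1 and 31.0 CPM in normoxia and at 57.0 and 27.9 CPM in hypoxia and was not called, but rose by 0.62 without hypoxic replicate 2 (adjusted p = 0.00245) and fell by 0.42 without replicate 1 (adjusted p = 0.0353).

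Contact with GL261 lowered 2 receptors of 9 in normoxic BV2 and raised none, where 9.14% of all genes were called lower and 5.77% higher (14.9% in all). Tlr9 was at 30.4 and 37.4 CPM alone and 17.0 and 15.7 CPM in contact, and fell by 1.05 (SE 0.20, adjusted p = 0.00408). Tlr7 fell by 0.59 (SE 0.13, adjusted p = 0.00914), with no call left without monoculture replicate 2 (−0.56, adjusted p = 0.0780) or co-culture replicate 1 (−0.60, adjusted p = 0.0571). In hypoxia 4 of 9 were lower in contact and none was higher, where 7.57% of all genes were called lower and 8.13% higher (15.7% in all). Tlr7 was at 90.4 and 110.2 CPM alone and 37.2 and 28.3 CPM in contact, and fell by 1.61 (SE 0.14, adjusted p = 9.28e-07). Tlr13 fell by 1.19 (SE 0.22, adjusted p = 0.00128), Tlr2 by 0.67 (SE 0.15, adjusted p = 0.00443) and Tlr9 by 0.79 (SE 0.19, adjusted p = 0.0101), the last with a value of −0.50 (adjusted p = 0.0679) without co-culture replicate 2. Tlr4 was called lower without monoculture replicate 1 (−0.50, adjusted p = 0.0290). The macrophage marker sums in hypoxia were 4412 and 4396 CPM alone and 3455 and 3281 CPM in contact, and their part in these falls was not tested. These comparisons share their monoculture or co-culture libraries with those on hypoxia. The estimated share of GL261 RNA, at the receptor levels of GL261 monoculture, would supply at most 3.5% of the level of any receptor tested in co-cultured BV2.

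The hypoxia effect itself differed between contact and monoculture in BV2 for Tlr7 only of the 9, by −1.02 ± 0.19 on the log2 scale (SE, adjusted p = 0.0178), where 2.19% of all genes were called (1.03% lower, 1.16% higher). Without normoxic co-culture replicate 2 its adjusted p was 0.0501. Tlr2, at −0.75 ± 0.20 (adjusted p = 0.0589), was called by DESeq2 (adjusted p = 0.0217) and without hypoxic co-culture replicate 1 (−1.0, adjusted p = 0.0257), and Tlr13, at −0.81 ± 0.31 (adjusted p = 0.156), was called without the same library (−1.52, adjusted p = 0.00185).

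In hypoxic BMDM monoculture 1 of 10 receptors was called and none was higher, where 10.6% of all genes were called lower and 13.3% higher (23.9% in all), and 5 of 10 had an unadjusted p under 0.05. Libraries of a group varied more than in BV2 (biological coefficient of variation 0.222 against 0.0958). Tlr8 was at 39.6 and 30.8 CPM in normoxia and 11.6 and 15.1 CPM in hypoxia and fell by 1.39 (SE 0.31, adjusted p = 0.00857), a call lost without normoxic replicate 1 (−1.27, adjusted p = 0.0617) or hypoxic replicate 1 (−1.24, adjusted p = 0.0726). Tlr1 was at 27.5 and 24.4 CPM against 7.13 and 7.74, with no overlap, and its difference of −1.80 ± 0.66 was not called (adjusted p = 0.0686). Tlr2 was at 163.7 and 158.0 CPM against 86.3 and 105.1 (−0.75, adjusted p = 0.246). Tlr3, at 9.58 and 9.95 CPM against 5.75 and 4.56, was not called (−0.92, adjusted p = 0.120). Tlr7 was at 81.8 and 64.0 CPM against 51.5 and 47.4 (−0.56, adjusted p = 0.118), and Tlr9 at 21.3 and 11.8 CPM against 6.91 and 9.33 (−1.03, adjusted p = 0.229). For Tlr2, Tlr3, Tlr7 and Tlr9 too the hypoxic libraries lay below the normoxic ones with no overlap, without a call. So did those of Tlr5, at 3.67 and 3.97 CPM in normoxia and 2.98 and 3.25 CPM in hypoxia, while those of Tlr4 lay above. The share of all genes whose libraries separate in this way was not counted, so nothing is concluded from it. Tlr6 was at 10.4 and 11.6 CPM against 11.4 and 11.2 (0.04, interval −0.67 to 0.75), and Tlr13 at 189.9 and 204.2 CPM against 187.5 and 204.0 (−0.01, interval −0.54 to 0.52). Tlr4 was at 48.0 and 43.6 CPM against 57.5 and 57.8 (0.33, adjusted p = 0.126). The median over the 10 receptors was −0.65, against 0.03 over all genes tested. The macrophage marker sums were 10208 and 9080 CPM in normoxia and 8957 and 8680 CPM in hypoxia.

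**Figure D2:**
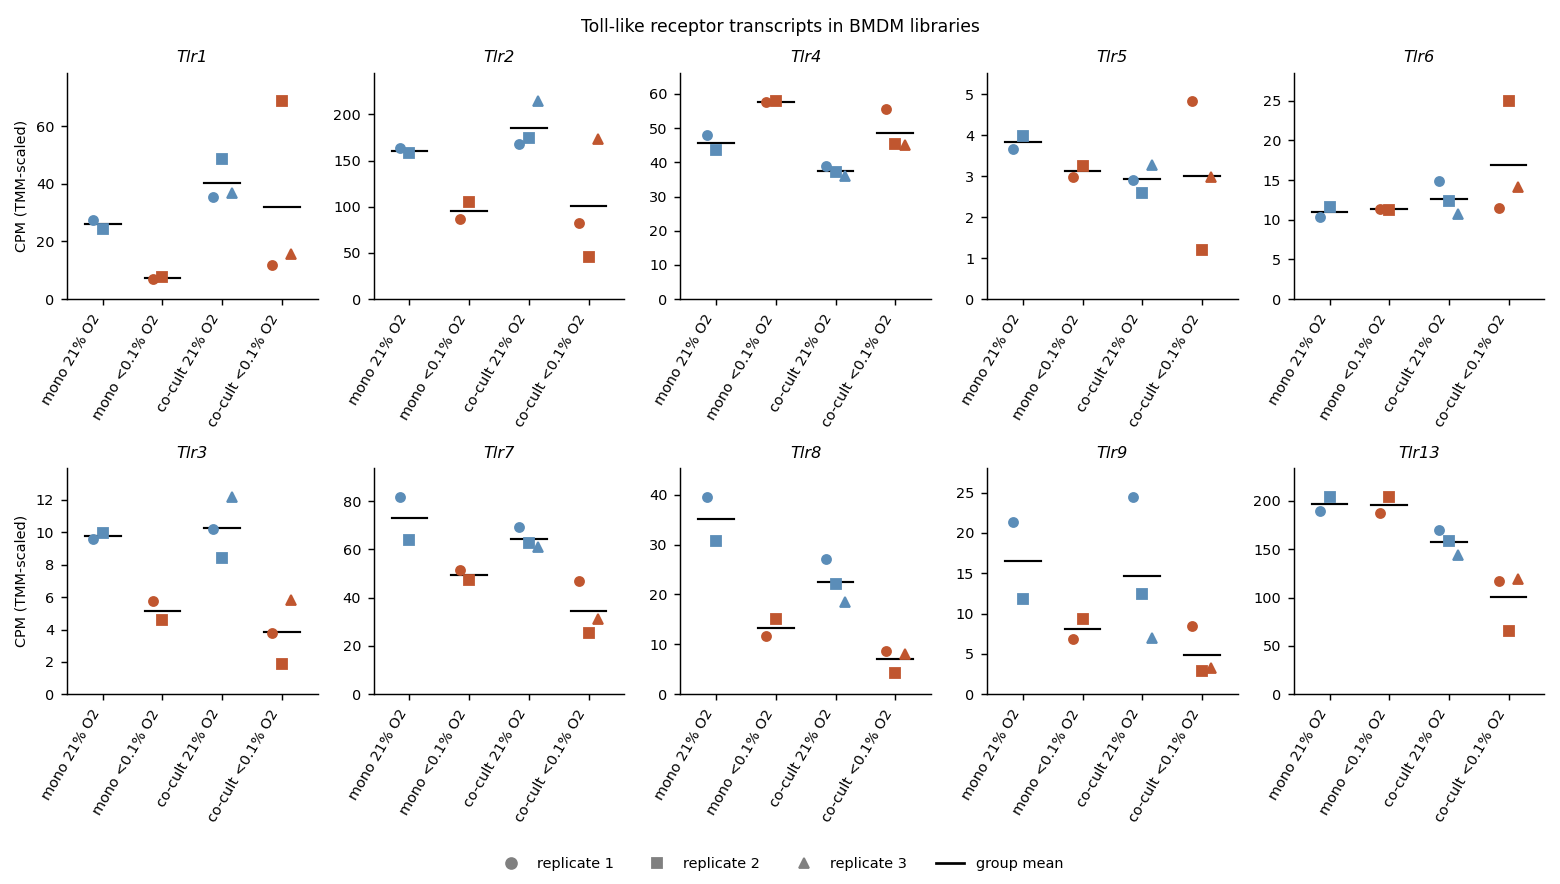
Level of each receptor in BMDM libraries of the co-culture experiment (y axis CPM from 0, TMM-scaled, a scale per panel; 1 point per library, bars at group means). Tlr8 is lower in hypoxia in both settings, and hypoxic co-culture replicate 2 has the highest Tlr1, at 68.6 CPM.

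In contact with GL261, 5 of 10 receptors fell in hypoxic BMDM and 1 rose, where 17.3% of all genes were called lower and 17.5% higher (34.8% in all). The macrophage marker sums were 9841, 9296 and 8012 CPM in normoxia and 7965, 5539 and 7384 CPM in hypoxia, and their part in these changes was not tested. Tlr8 was at 27.2, 22.1 and 18.5 CPM in normoxia and at 8.73, 4.32 and 8.05 CPM in hypoxia, and fell by 1.70 (SE 0.26, adjusted p = 6.96e-04). Tlr3 fell by 1.42 (SE 0.34, adjusted p = 0.00781), Tlr7 by 0.90 (SE 0.20, adjusted p = 0.00538), Tlr9 by 1.62 (SE 0.50, adjusted p = 0.0271) and Tlr13 by 0.65 (SE 0.20, adjusted p = 0.0259). Tlr13 lost its call without normoxic replicate 1 (−0.62, adjusted p = 0.0643), as did Tlr9 without that library (−1.04, adjusted p = 0.117), hypoxic replicate 2 (−1.35, adjusted p = 0.0825) or hypoxic replicate 3 (−1.41, adjusted p = 0.0847). Tlr4 rose by 0.37 ± 0.12 (adjusted p = 0.0325), and lost its call when any normoxic library or hypoxic replicate 1 was left out, with values of 0.27 to 0.39, and without a count filter (0.34, adjusted p = 0.168).

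The hypoxic co-cultured BMDM libraries disagreed on Tlr1 and Tlr2. Replicate 2 had the lowest macrophage marker sum of the 3, 5539 CPM against 7965 and 7384, and the highest Tlr1 and Tlr6, at 68.6 and 24.9 CPM. Its Tlr2 was the lowest, at 45.2 CPM against 82.9 and 173.8 in the other libraries. The estimated GL261 RNA would supply 11% of the Tlr3 level and 5.4% of the Tlr6 level of this group. Tlr1 was not called (−0.32), but without that library it fell by 1.56 (adjusted p = 3.43e-04). Tlr2 was at 168.3, 175.0 and 214.1 CPM in normoxia and its difference of −0.88 ± 0.36 was not called (adjusted p = 0.0800). It fell by 1.06 with the replicate number as a block (adjusted p = 0.00989) and by 1.54 without hypoxic replicate 3 (adjusted p = 0.00133).

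Contact with GL261 gave no called receptor in normoxic BMDM by edgeR (1 of 10 at unadjusted p under 0.05, 0 by DESeq2), where 1.64% of all genes were called (1.57% higher, 0.0675% lower). In hypoxia it lowered Tlr13, from 187.5 and 204.0 CPM alone to 116.8, 65.6 and 118.7 CPM in contact (−0.96 ± 0.22 SE, adjusted p = 0.0286), 1 of 10 where 3.05% of all genes were called lower and 4.06% higher (7.11% in all). That call was lost without monoculture replicate 1 (−1.02, adjusted p = 0.129) or replicate 2 (−0.91, adjusted p = 0.205). The macrophage marker sums were 8957 and 8680 CPM alone, against the lower sums in contact given above, and their part was not tested. Tlr1 was 2.12 ± 0.63 higher in contact but not called (adjusted p = 0.0676), and was called at 0.89 without hypoxic co-culture replicate 2 (adjusted p = 0.0418) and at 2.53 without replicate 1 (adjusted p = 0.0122). The latter omission also gave calls for Tlr7 (−0.79, adjusted p = 0.0134) and Tlr8 (−1.11, adjusted p = 0.0366). No receptor's hypoxia effect differed between contact and monoculture in BMDM by edgeR (0 of 10 at unadjusted p under 0.05, 0 by DESeq2), where 0% of all genes were called.

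In the test of the difference, BV2 and BMDM monocultures differed in their response to hypoxia for 2 of 10 receptors, where 12.3% of all genes were called (6.24% higher, 6.11% lower). Tlr6 rose by 2.13 ± 0.36 more in BV2 on the log2 scale (SE, adjusted p = 0.00160) and Tlr4 by 1.15 ± 0.20 more (adjusted p = 0.00178). Tlr13 differed by 1.16 ± 0.38 and was not called by edgeR (adjusted p = 0.0597), but was by DESeq2 (adjusted p = 0.0213). The cell types differ in medium and serum as well as in origin, and were counted in separate tables, so these cannot be told apart.

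**Figure D3:**
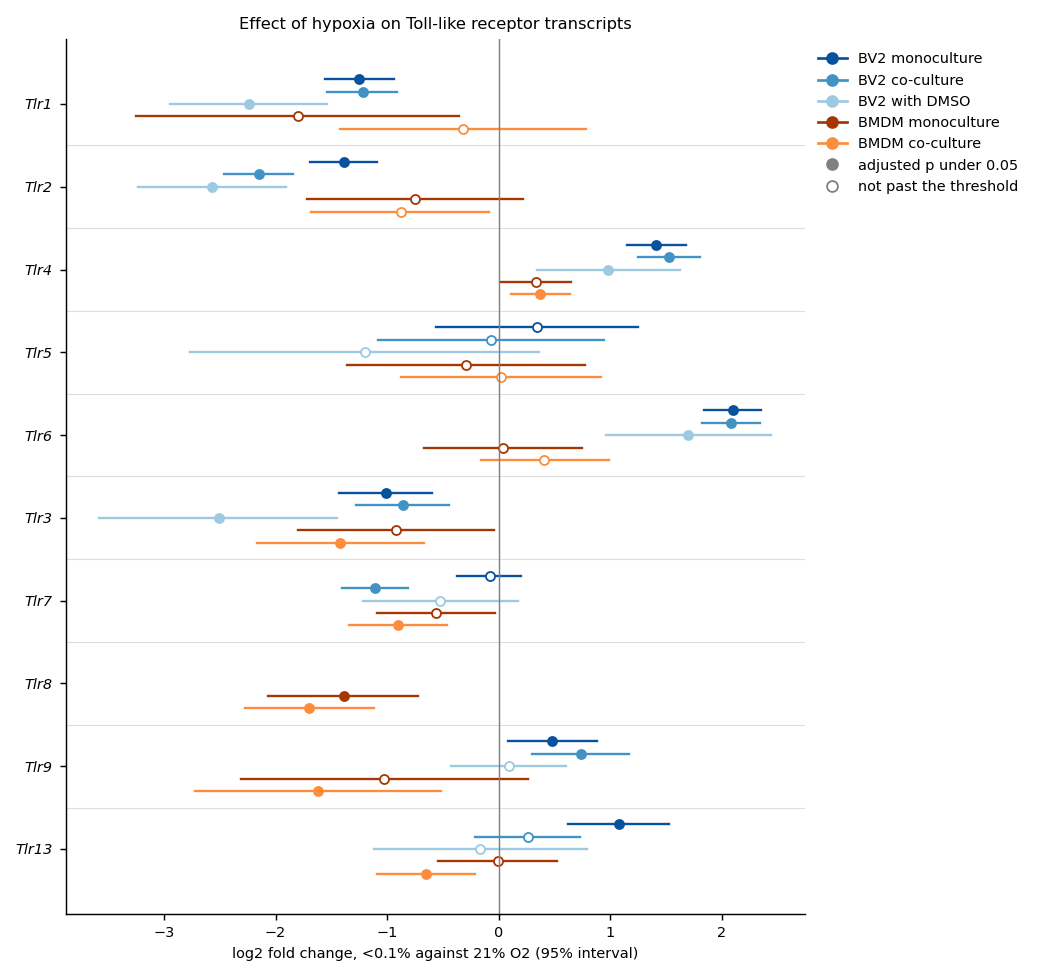
Log2 fold change of each receptor with hypoxia in BV2 (monoculture, co-culture and DMSO) and BMDM (monoculture and co-culture), with 95% intervals as lines; filled points passed the adjusted p of 0.05. Tlr6 lies between 1.70 and 2.10 in the 3 BV2 comparisons and was not called in BMDM, and Tlr1, Tlr2 and Tlr3 lie below 0 in all 5.

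In GL261 cells Tlr4 and Tlr6 rose in hypoxia as well. Of 6 receptors tested in monoculture 3 rose and none fell, where 23.2% of all genes were called higher and 21.4% lower (44.6% in all). Tlr4 was at 14.9 and 16.9 CPM in normoxia and 56.9 and 33.2 CPM in hypoxia (log2 1.51 ± 0.22 SE, adjusted p = 3.15e-04), and Tlr6 at 13.3 and 13.8 CPM against 24.3 and 22.8 (0.80 ± 0.18, adjusted p = 0.00413). Tlr2 was at 3.43 and 2.29 CPM against 5.65 and 4.44 (0.82 ± 0.31, adjusted p = 0.0478), which lost its call without normoxic replicate 2 (0.60, adjusted p = 0.224) or hypoxic replicate 1 (0.67, adjusted p = 0.178), and with DESeq2 (adjusted p = 0.0533). Tlr1, at 2.00 and 1.81 CPM against 3.93 and 1.93, was called without hypoxic replicate 2 (1.05, adjusted p = 0.0327). In co-culture the same 3 were called higher and Tlr7 lower, where 26.8% of all genes were called higher and 25.6% lower (52.4% in all). Tlr7 had 11 to 15 counts in normoxic co-culture and at most 3 in any other GL261 library. It passed the count filter through that group alone, so for Tlr7 only a fall could have been called. Tlr4 rose by 1.99 ± 0.23 (adjusted p = 3.77e-05) and Tlr6 by 1.08 ± 0.19 (adjusted p = 5.31e-04). Tlr2 rose by 1.01 ± 0.31 (adjusted p = 0.0170), a call lost without normoxic replicate 1 (1.12, adjusted p = 0.0539), normoxic replicate 2 (0.95, adjusted p = 0.0890) or hypoxic replicate 1 (0.65, adjusted p = 0.161). BV2 RNA would supply an estimated 36.0% of the Tlr2 level in normoxic co-cultured GL261.

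Tlr7 in co-cultured GL261 was 0.715 and 0.921 CPM in normoxia and 0.0631 and 0.113 CPM in hypoxia. BV2 RNA made up an estimated 0.773% of the normoxic libraries, which at the Tlr7 level of BV2 (107.3 CPM) would give 0.83 CPM, against 0.82 CPM measured. In hypoxia the same estimate gave 0.23 CPM, from a BV2 share of 0.237%, against 0.0852 CPM measured. The source of these few counts was not tested. Its call was lost without normoxic replicate 2 (−2.88, adjusted p = 0.0611) or hypoxic replicate 1 (−2.77, adjusted p = 0.0639). Contact called no receptor in GL261 by edgeR, in normoxia (2 of 6 at unadjusted p under 0.05, 0 by DESeq2; 0.514% of all genes called) or in hypoxia (0 of 6, 0 by DESeq2; 1.39% of all genes called).

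**Figure D4:**
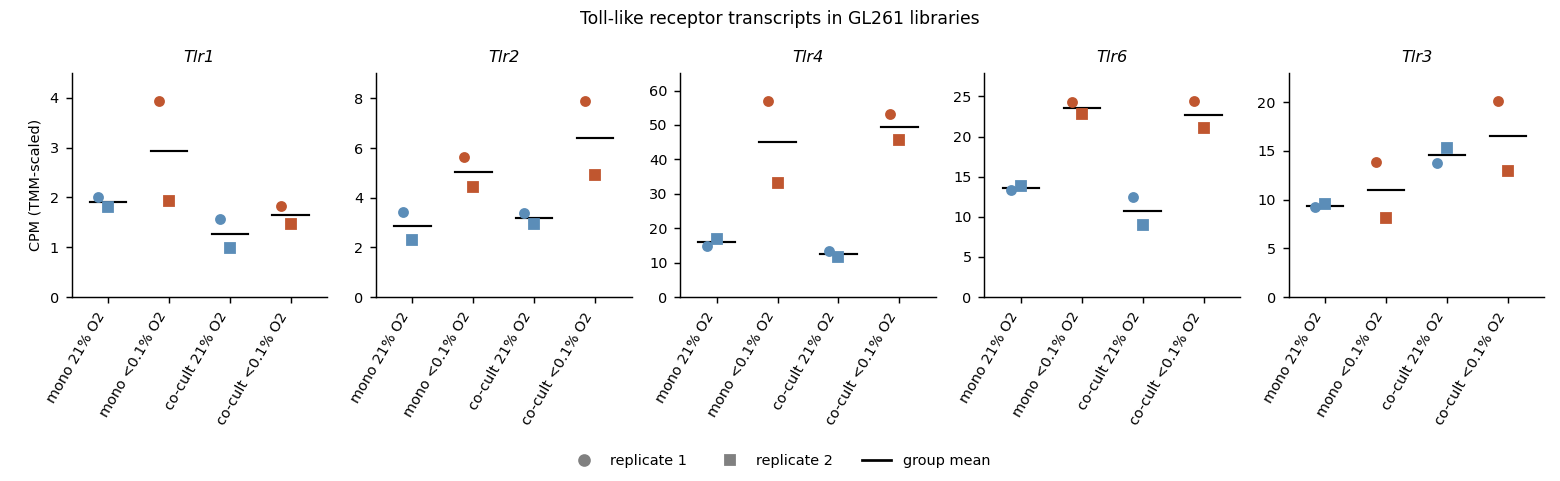
Levels of Tlr1, Tlr2, Tlr4, Tlr6 and Tlr3 in GL261 libraries (y axis CPM from 0, TMM-scaled, a scale per panel; 1 point per library, bars at group means). Tlr4 and Tlr6 are higher in hypoxia.

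The BV2 and GL261 lines differed in the hypoxia effect for 4 of 9 receptors in monoculture, where 37.4% of all genes were called (18.7% in each direction). Tlr6 rose by 1.40 ± 0.20 more in BV2 (SE, adjusted p = 2.80e-05). Tlr2 was −2.12 ± 0.31 in BV2 relative to GL261 (adjusted p = 3.26e-05) and Tlr1 −1.81 ± 0.37 (adjusted p = 6.80e-04). Tlr3 was −1.16 ± 0.36 (adjusted p = 0.0164), a call lost without BV2 normoxic replicate 2 (−1.03, adjusted p = 0.0619) or GL261 hypoxic replicate 1 (−0.77, adjusted p = 0.109). For Tlr4 the difference was 0.01 ± 0.28 (interval −0.58 to 0.59). The other receptors tested were Tlr9, with 0 counts in GL261 monoculture, and Tlr5, Tlr7 and Tlr13, with at most 8 in any such library. A hypoxia effect in GL261 could hardly be measured for these, which limits what 4 of 9 can show.

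Panobinostat in hypoxic BV2 cells lowered 2 of 9 receptors and raised 1, where 7.39% of all genes were called lower and 7.21% higher (14.6% in all). Tlr7 was at 85.5 and 61.0 CPM with DMSO and 15.7 and 17.3 CPM with panobinostat, and fell by 2.15 (SE 0.33, adjusted p = 0.00484). Tlr13 was at 52.0 and 39.0 CPM against 7.97 and 8.29, and fell by 2.48 (SE 0.47, adjusted p = 0.0103). Tlr1 rose from 2.83 and 4.48 CPM to 10.4 and 12.4 (1.64 ± 0.31 SE, adjusted p = 0.0113), a call lost without panobinostat replicate 2 (1.50, adjusted p = 0.0645). The groups did not overlap for any of the 3. The macrophage marker sums were 4121 and 3783 CPM with DMSO and 3050 and 2758 with panobinostat, and their part in these changes was not tested. Tlr2 was at 16.1 and 30.4 CPM against 38.7 and 31.9 (0.60, adjusted p = 0.183) and was called without DMSO replicate 2 (1.12, adjusted p = 0.0339). Tlr6 (−0.75, adjusted p = 0.143), Tlr9 (−0.54, adjusted p = 0.140) and Tlr4 (−0.36) were lower, and Tlr3 (1.22, adjusted p = 0.112) higher, without a call. With the replicate number as a block 7 receptors were called, where 4025 of all genes were called against 1941 without it. The hypoxia and panobinostat comparisons share the hypoxic DMSO libraries. Tlr1 fell in hypoxia with DMSO and was higher with panobinostat, while Tlr7, not called in hypoxia with DMSO, was lower with panobinostat.

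**Figure D5:**
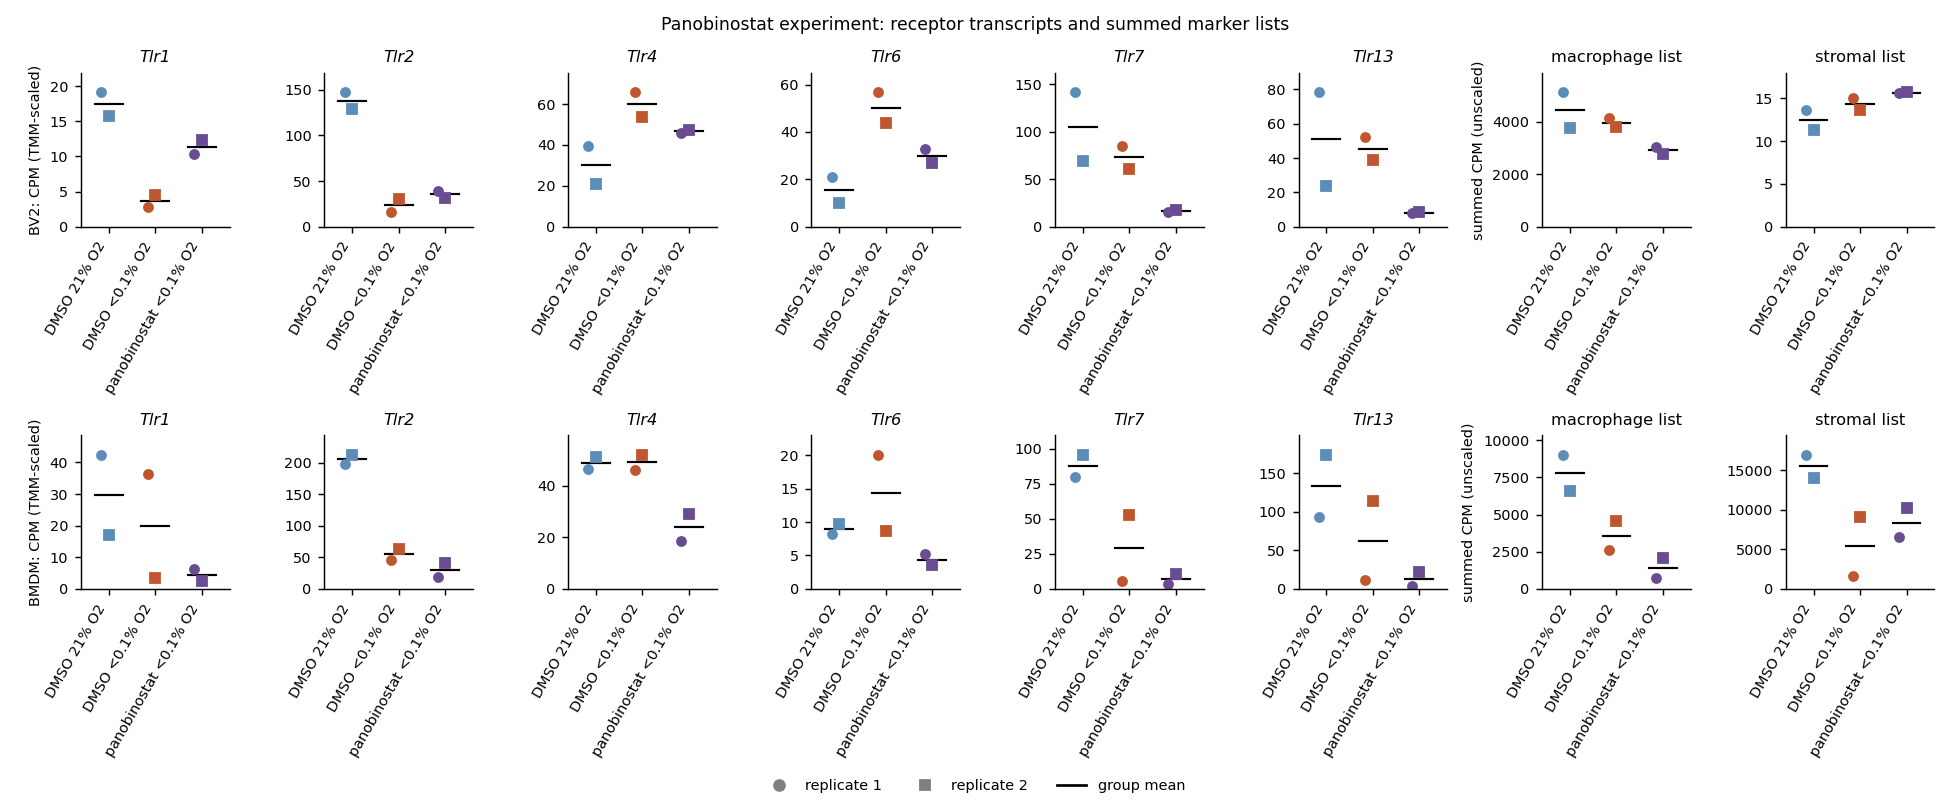
Levels of 6 receptors (CPM from 0, TMM-scaled) and summed levels of the macrophage and fibroblast (stromal) lists (CPM, unscaled) in the DMSO normoxia, DMSO hypoxia and panobinostat hypoxia groups, for BV2 (top row) and BMDM (bottom row), with 1 point per library and bars at group means. In BV2, Tlr7 and Tlr13 are lowest with panobinostat and Tlr1 is higher than in DMSO hypoxia.

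In BMDM of the same experiment no receptor was called by edgeR in either contrast in the fit without a replicate block. With the replicate number as a block, 1 receptor was called for hypoxia and 1 for panobinostat. The block called 2127 and 2044 of all genes in these contrasts, against 72 and 0 without it. The values that follow are from fits without the block. For hypoxia with DMSO, 2 of 10 had an unadjusted p under 0.05 and DESeq2 called 1, Tlr2 (−1.93, adjusted p = 6.79e-04), where 0.483% of all genes were called. Tlr2 was at 198.4 and 212.7 CPM in normoxia and 46.2 and 62.8 CPM in hypoxia (−1.92 ± 0.40, edgeR adjusted p = 0.0803). For panobinostat, 2 of 10 had an unadjusted p under 0.05 and DESeq2 called these 2, Tlr4 (−1.02, adjusted p = 0.0307) and Tlr6 (−1.71, adjusted p = 0.0269), where 0% of all genes were called. Tlr4 was at 46.2 and 52.0 CPM with DMSO and 18.6 and 29.1 CPM with panobinostat. The hypoxic DMSO libraries stood far apart, with Tlr7 at 5.43 and 52.3 CPM, Tlr8 at 0.714 and 18.2, Tlr13 at 11.9 and 113.5, and Tlr1 at 36.3 and 3.43. Their macrophage marker sums were 2610 and 4540 CPM and their fibroblast sums 1672 and 9070, while the panobinostat libraries had macrophage sums of 740.6 and 2102. The part of cell composition in these values was not tested. Leaving out any of these libraries gave no call in either contrast. No difference between BV2 and BMDM was called by edgeR in the hypoxia effect with DMSO (1 of 10 at unadjusted p under 0.05, 0 by DESeq2; 0.664% of all genes called) or in the panobinostat effect (2 of 10, 0 by DESeq2; 0.0251% of all genes called). Without BMDM hypoxic DMSO replicate 2 that difference was called for Tlr7 in hypoxia (3.52, adjusted p = 0.0266) and for Tlr1 with panobinostat (4.52, adjusted p = 0.0418).

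The receptors need chaperones, adaptors and transcription factors, and these were described from lists chosen with results of these data known. In hypoxic BV2 monoculture, 6 of 11 co-receptors and chaperones rose and 2 fell (median log2 0.37, against 0.00 over all genes tested, of which 30.9% were called higher and 31.0% lower). In the DMSO libraries the balance was the other way, with 1 of 10 higher and 3 lower (median −0.25, against −0.03 over all genes, of which 17.2% were called higher and 20.2% lower). In monoculture Hsp90b1, which folds most of the family, rose from 697.4 ± 100.8 to 2153 ± 519.8 CPM (SD, n = 2; log2 1.63, adjusted p = 3.81e-07). Unc93b1, which carries the nucleic acid sensors to endolysosomes, was at 207.7 ± 0.632 and 210.2 ± 12.2 CPM (0.02). With DMSO, Hsp90b1 was not called (0.70, adjusted p = 0.0716) and Unc93b1 fell by 0.78 (adjusted p = 0.0342). Cd14, a co-receptor of Tlr4, rose by 0.64 (adjusted p = 1.74e-04) and Ly96, which binds lipopolysaccharide with Tlr4, by 0.74 (adjusted p = 0.00308) in monoculture, and neither was called with DMSO (0.43 and 0.42).

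Of 21 adaptors, kinases and ligases, 10 rose and 6 fell in hypoxic BV2 monoculture (median 0.30), a share near the 61.9% of all genes called, and 5 rose and 4 fell with DMSO (median −0.04), where 37.5% of all genes were called. Ticam1, the adaptor of Tlr3 and Tlr4, rose from 17.1 ± 1.99 to 120.9 ± 3.13 CPM (log2 2.82, adjusted p = 1.00e-10), and Ticam2, which bridges it to Tlr4, from 13.8 ± 0.428 to 96.9 ± 4.79 CPM (2.81, adjusted p = 6.03e-11). Myd88, the adaptor of all members but Tlr3, fell from 98.5 ± 7.92 to 42.2 ± 1.98 CPM (by 1.22, adjusted p = 1.43e-07) and Tirap, its bridge to Tlr2 and Tlr4, from 57.3 ± 1.57 to 30.3 ± 1.82 CPM. In BMDM 4 of 21 rose and 1 fell (median 0.02, against 0.03 over all genes), a share near the 23.9% of all genes called. Ticam1 rose by 1.37 there (adjusted p = 0.00354) and Ticam2 by 2.05 (adjusted p = 0.00128), while Myd88 was not called (−0.14, adjusted p = 0.635). The hypoxia effect differed between BV2 and BMDM for Myd88 (−1.01, adjusted p = 0.00865) and Ticam1 (1.52, adjusted p = 0.00487). Among the inhibitors 6 of 14 rose and 2 fell in BV2 monoculture (median 0.11), and 3 rose and 3 fell with DMSO (median −0.22), against 61.9% and 37.5% of all genes called. Tnfaip3, which removes ubiquitin chains from this pathway, rose by 2.90 in BV2 (adjusted p = 5.17e-09) and by 2.20 in BMDM (adjusted p = 0.00477).

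In the other lists, hypoxic BV2 monoculture had 4 higher and 2 lower of 9 endolysosomal processing genes (median 0.44), 4 and 2 of 9 transcription factors (0.39), and 5 and 0 of 8 NF-kB and interferon target genes (1.08), where 30.9% of all genes were called higher and 31.0% lower. With DMSO these were 0 and 3 of 9 (−0.40), 2 and 2 of 9 (−0.02), and 2 and 2 of 8 (0.26), where 17.2% were called higher and 20.2% lower. Ifi30, a lysosomal thiol reductase, fell by 1.81 in BV2 monoculture (adjusted p = 1.55e-09), by 2.43 in BV2 with DMSO (adjusted p = 2.53e-04) and by 0.96 in BMDM (adjusted p = 0.00747). Contact in normoxia raised 5 of 8 target genes in BV2 and lowered none (median 1.09, against −0.02 over all genes, of which 5.77% were called higher and 9.14% lower), among them Ccl5 (1.45, adjusted p = 0.00436) and Cxcl10 (1.45, adjusted p = 0.00794), from 1.71 ± 0.22 and 1.51 ± 0.565 CPM. What GL261 RNA would supply of these target genes was not estimated. The target list held 13 genes, and Il1a, Il6, Il12b, Il10 and Ifnb1 were too low to be tested in BV2 of the co-culture experiment. With panobinostat 5 of 10 co-receptors and chaperones fell and 1 rose in hypoxic BV2 (median −0.71, against −0.01 over all genes, of which 7.39% were called lower and 7.21% higher), and 4 of 9 transcription factors fell with none higher (−0.70), among them Spi1, which encodes PU.1 (−1.08), and Irf8 (−1.07). Unc93b1 fell from 204.9 ± 15.5 to 90.7 ± 6.36 CPM (by 1.18, adjusted p = 0.0162) and Cd14 from 140.2 ± 5.81 to 33.1 ± 9.35 CPM (by 2.08, adjusted p = 0.00196). Cd36, a scavenger receptor that assists Tlr2 and Tlr6, rose from 2.95 ± 0.0515 to 36.9 ± 3.91 CPM (3.64, adjusted p = 4.48e-04). Tlr11 and Tlr12 were too low to be tested in any cell type.

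The genes most like the receptors in level over the 30 BV2 and BMDM libraries (log2 CPM, centred within each cell type and experiment) are given as a description, since the libraries share cell types, treatments and depth. For Tlr7 they were Fmnl1 and Trem2 (Pearson r = 0.95 each) and Kcnk6 (0.94), and for Tlr13 Kcnk6 (0.95), Trem2 (0.93) and Evi2a (0.93). For Tlr4 they were Vwa5a (0.94), Brox (0.93) and Tut7 (0.93), and for Tlr2 Camkk2 (0.94), Sgk3 (0.92) and Syngr2 (0.92).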

How the data were processed

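Polyadenylated RNA from 38 libraries was sequenced as 151 bp pairs from a stranded kit, per the labels. The deposited values are whole-number counts per Ensembl gene, not normalized, in 3 tables. The submitters' processing notes name mm10, Trimmomatic 0.36, STAR 2.6, Picard 2.17.1 and HTSeq 0.9.1, without their roles. The annotation and strand setting are not given in the sources used here. Symbols and exon lengths came from GENCODE M21 (55141 of 55487 identifiers had a symbol).

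Groups were compared with edgeR 4.0.16 (TMM, filterByExpr, quasi-likelihood F test, Benjamini-Hochberg adjusted p below 0.05 over all genes tested). Each cell type and experiment had its own fit, and fits joining cell types were made only for differences between them. The CPM printed are TMM-scaled within the fit. The standard error is the absolute log2 fold change divided by the square root of F. Alternatives were DESeq2 1.42.0, other filters, the replicate number as a block and leaving out each library; the fits were tested on simulated data. The differences in hypoxia effect between monocultures were added after seeing the data. All 10 members are described. From each pathway list, up to 2 called genes with the largest rise and 2 with the largest fall were named, among those of at least 5 CPM; Unc93b1, Tirap, Ly96, Ccl5, Cxcl10, and Cd14 in hypoxia, were named after their values were seen. The members and lists were chosen with earlier results of these data known. Same-numbered BMDM co-culture libraries deviated together (3 pairs, correlations 0.263 to 0.530), and the blocked value of Tlr2 is given there. In the panobinostat experiment such correlations were 0.325 to 0.620 in BMDM and 0.193 to 0.448 in BV2. In the co-culture experiment they were 0.0333 to 0.521 in GL261 and −0.122 to 0.344 in BV2. For other comparisons only counts under the block are given, and the values printed are from the fit without the block. Likeness used all 30 BV2 and BMDM libraries (28 had been written in the plan). Partner RNA was estimated from genes of at least 20 CPM and 100-fold higher in the partner's monoculture. No replicate pair was identical (22 pairs).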

Additional observations from a re-analysis of the deposited data

Results flagged for a closer look

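The effect of hypoxia on Tlr7 in BV2 cells differed between co-culture with GL261 and monoculture by −1.02 on the log2 scale, in the test of that difference. Between BV2 and GL261 monocultures the hypoxia effect differed for Tlr6 (1.40), Tlr1 (−1.81), Tlr2 (−2.12) and Tlr3 (−1.16), each given as BV2 minus GL261. Between BV2 and BMDM monocultures it differed for Tlr6 (2.13) and Tlr4 (1.15), given as BV2 minus BMDM. No group held 4 or more libraries, so no library was tested for lying far from the others.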

How the results depend on the processing

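Under DESeq2, size factors, no count filter, the replicate block and leaving out each library, the 58 called receptor values kept their direction throughout, and lost their call in 33 of 505 settings. Among the settings tried for the 157 values not called, 76 gave a call in the same direction and 120 changed the sign without a call. The 2 called changes of sign were Tlr13 in hypoxic BV2: −0.42 in co-culture without hypoxic replicate 1 (0.62 without replicate 2), and 0.96 with DMSO without normoxic replicate 1 (−0.76 without replicate 2). The cause was not tested.

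With DESeq2 the number of receptors called went from 1 to 2 for the BV2 difference in hypoxia effect between co-culture and monoculture, from 1 to 3 for co-culture in hypoxic BMDM, from 0 to 1 for hypoxia in BMDM with DMSO, from 0 to 2 for panobinostat in BMDM, and from 1 to 2 for the BV2 and BMDM levels. Without a count filter the same 5 became 3, 3, 6, 5 and 4, hypoxia in BMDM monoculture went from 1 to 6, panobinostat in BV2 from 3 to 5, and the difference between BV2 and BMDM monocultures from 2 to 4. The BMDM difference between co-culture and monoculture, and those between BV2 and BMDM with DMSO and with panobinostat, each went from 0 to 1. When each library was left out, the counts ranged from 1 to 2 for co-culture in normoxic BV2, 0 to 3 for the BV2 difference between co-culture and monoculture, 0 to 1 for hypoxia in BMDM monoculture, 3 to 6 in BMDM co-culture, 0 to 4 for co-culture in hypoxic BMDM, 2 to 4 for hypoxia in GL261 co-culture, 1 to 2 for the BV2 and BMDM levels, and 0 to 1 for each DMSO or panobinostat difference between BV2 and BMDM.

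With the replicate number as a block, hypoxia in BMDM monoculture called 3 receptors (1 without), co-culture in hypoxic BMDM 2 (1), panobinostat in BV2 7 (3), BMDM with DMSO in hypoxia 1 (0), panobinostat in BMDM 1 (0), the BV2 and BMDM levels 2 (1). Hypoxia in co-cultured BMDM called 7 (6), co-culture in normoxic BV2 3 (2), the BV2 and GL261 levels 8 (7), and the difference between BV2 and BMDM monocultures 3 (2). Over all genes the block called 4025 against 1941 for panobinostat in BV2, 2127 against 72 for hypoxia and 2044 against 0 for panobinostat in BMDM, 432 against 243 for co-culture in normoxic BMDM, 226 against 78 and 654 against 211 for co-culture in normoxic and hypoxic GL261, 363 against 106 and 22 against 4 for the hypoxia and panobinostat differences between BV2 and BMDM. Outside BMDM co-culture, groups shared only a number with 2 pairs. Receptors of a few counts, such as Tlr5 and Tlr8 in BV2, are limited by depth.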
